A study of Mus musculus with 10 samples.

Results

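Tubulin isotypes are the products of separate genes for the alpha and beta subunits of microtubules, and 10 of them were described here, chosen by gene symbol among the 55359 genes of the deposited table. The alpha tubulin genes were Tuba1a, Tuba1b, Tuba1c, Tuba4a and Tuba8, and the beta tubulin genes were Tubb2a, Tubb2b, Tubb4b, Tubb5 and Tubb6. They were measured by RNA-seq in C2C12 cells, a mouse myoblast line whose cells fuse into myotubes when serum is reduced, after transfection with an siRNA against Fndc1 (si-Fndc1, 5 libraries) or with a scrambled control siRNA (si-Control, 5 libraries). Fndc1 encodes a secreted protein with fibronectin type III domains. Both groups received siRNA at 100 nM and, by the labels, were collected on day 4 in 2% horse serum, whereas the description of the series gives a harvest at 48 h after transfection. Nothing in the labels ties the 5 libraries of a group to separate cultures, so that p-values measure the spread between these libraries, which may be technical.

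Alpha and beta tubulin form the heterodimer that polymerizes into microtubules. The isotypes of each subunit are closely similar in their globular body and differ mostly in the carboxy-terminal tail that extends from the microtubule surface, where enzymes add or remove tyrosine, glutamate and glycine and where motors and microtubule-associated proteins bind. In differentiating muscle cells microtubules leave the centrosome, are nucleated from the nuclear envelope and form parallel arrays along the elongating myotube. Folding of both subunits needs prefoldin, the CCT chaperonin and a set of tubulin cofactors, and cells also adjust tubulin mRNA to the amount of free tubulin, a control in which Ttc5 recognizes nascent tubulin on the ribosome.

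The coding ends of 7 isotypes are shown because the tail is where these genes differ most and where the tyrosine of alpha tubulin is encoded. Each run is the last 48 bases of the coding sequence, the stop codon included, read from gencode transcripts of the mouse build NCBIM37, with the last sense codon in capitals.
Tuba1c: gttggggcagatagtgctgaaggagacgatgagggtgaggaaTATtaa
Tuba4a: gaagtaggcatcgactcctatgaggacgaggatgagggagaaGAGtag
Tuba8: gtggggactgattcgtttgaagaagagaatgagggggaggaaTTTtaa
Tubb2a: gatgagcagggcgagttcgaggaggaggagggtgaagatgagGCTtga
Tubb2b: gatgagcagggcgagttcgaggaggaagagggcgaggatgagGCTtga
Tubb4b: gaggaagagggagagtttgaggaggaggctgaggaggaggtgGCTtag
Tubb5: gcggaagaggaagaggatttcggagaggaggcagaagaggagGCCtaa
Tuba1c ended with a tyrosine codon (TAT), whereas Tuba4a ended with GAG and Tuba8 with TTT. The ends of Tubb2a and Tubb2b were near copies of each other, and those of Tubb4b and Tubb5 were not.

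The near copies limit how well reads can be assigned. Over the whole coding sequence Tuba1a and Tuba1b were 98.3% identical, Tuba1a and Tuba1c 97.1%, Tuba1b and Tuba1c 97.9%, and Tubb2a and Tubb2b 96.5%, whereas Tuba4a shared 84.7% with Tuba1a and Tubb4b shared 83.6% with Tubb2a. Windows of the longest coding transcript were searched for in the protein-coding transcripts of all other genes, and pseudogenes were not searched. The paper's methods give paired reads of 100 bases, and single windows leave out the second read of a pair. Of all windows of 100 bases, 57.7% were found in no other gene for Tuba1a. The values were 47.7% for Tuba1b, 46.4% for Tuba1c, 63.4% for Tubb2a and 70.2% for Tubb2b. With windows of 75 bases, the read length in the series description, the values for these 5 genes in the same order were 50.4%, 41.2%, 43.2%, 59.1% and 66.6%. For Tuba4a, Tuba8, Tubb4b, Tubb5 and Tubb6 every window of either length was unique in this search. How the authors' counting treated reads that match 2 genes equally is not given in the sources used here. Values of single isotypes within the Tuba1 and Tubb2 groups are therefore uncertain, to an extent that these windows do not fix.

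In the table Tuba1b (chr15:98829306-98832446, minus strand), Tuba1a (chr15:98847718-98851584, minus strand) and Tuba1c (chr15:98927772-98935991, plus strand) were neighbours, with 15271 bases between Tuba1b and Tuba1a and 76187 between Tuba1a and Tuba1c. Tubb2a (chr13:34258257-34261990) and Tubb2b (chr13:34310731-34314449) lay 48740 bases apart on the minus strand. The others were listed on separate chromosomes, Tuba4a on chr1:75190872-75196509, Tuba8 on chr6:121187655-121203813, Tubb4b on chr2:25112172-25114714, Tubb5 on chr17:36144813-36149198 and Tubb6 on chr18:67523787-67535819. The table names no genome build, and the submitters' processing notes name GRCm39.

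The libraries held 56332844 to 75995168 counted reads, and the members took 0.493% to 0.569% of them. Of the 13548 genes with a mean of at least 0.5 FPKM (read fragments scaled to transcript length and library size), edgeR called 4663, or 34.4%, at an adjusted p under 0.05, 17.3% higher and 17.2% lower in si-Fndc1, and the FPKM ranges of the groups did not overlap for 25.1%. Fndc1 itself was at 27.8 ± 2.04 FPKM (SD, n = 5) in si-Control and 20.9 ± 1.70 in si-Fndc1, with every si-Fndc1 library below every si-Control library (log2 fold change -0.40, SE 0.07, adjusted p 0.000934). With an offset for the GC content and length of transcripts, the value for Fndc1 was -0.06 (adjusted p 0.380). Summed FPKM of 8 myotube markers lay between 2256 and 2496 in si-Control and between 2091 and 2447 in si-Fndc1, and 3 of the 8 were called, all higher, Ckm, Mymk and Myod1 at log2 fold changes of 0.39, 0.26 and 0.16. The other markers were not called, with Myh3 at -0.17, Myog at -0.12, Tnnt3 at -0.05, Des at -0.04 and Actn2 at 0.04. Summed FPKM of 7 hepatocyte markers reached at most 4.98 in si-Control, lay between 40.6 and 153 in si-Fndc1, and all 7 were called. The part of the hepatocyte transcripts in the results on tubulins was not tested. Of the neuron markers, Snap25, Rbfox3 and Elavl4 had no read. All 6 together summed to between 8.75 and 9.97 FPKM in si-Control libraries and between 9.75 and 12.5 FPKM in si-Fndc1 libraries. Most of this sum was Stmn2, at 8.16 to 9.41 FPKM in si-Control and 9.41 to 12.1 FPKM in si-Fndc1. Stmn2 was also the only 1 called, higher in si-Fndc1 (log2 fold change 0.31, adjusted p 0.00753). Nefl lay between 0.418 and 0.675 FPKM in si-Control and between 0.315 and 0.524 FPKM in si-Fndc1. In blood markers the sum stayed at or under 2.88, with Ptprc at 0, and in adipocyte markers it was at most 0.0516, with Adipoq, Plin1 and Lep at 0.

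Tuba1a was the most abundant isotype, Tuba8 was not detected, and the 8 others spread between them. In si-Control the mean levels fell from 773 FPKM for Tuba1a to 379 for Tuba1b, then 241 for Tubb2a, 241 for Tubb6, 236 for Tubb2b, 147 for Tuba1c, 138 for Tubb5, 43.9 for Tubb4b and 29.8 for Tuba4a. The ranges over the 5 libraries overlapped among Tubb2a, Tubb6 and Tubb2b and between Tuba1c and Tubb5, and did not overlap for the other neighbours in this order. In si-Fndc1 the order was the same, except that Tubb6 (219) came after Tubb2b (231) with overlapping ranges. Tubb2a (257) lay above both Tubb2b and Tubb6 without overlap in FPKM. This order between genes rests on the authors' transcript lengths. As a mean share of the read counts of the beta members in si-Fndc1, Tubb2a (20.0%) lay below Tubb2b (25.6%) and Tubb6 (25.8%).

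**Figure D1:**
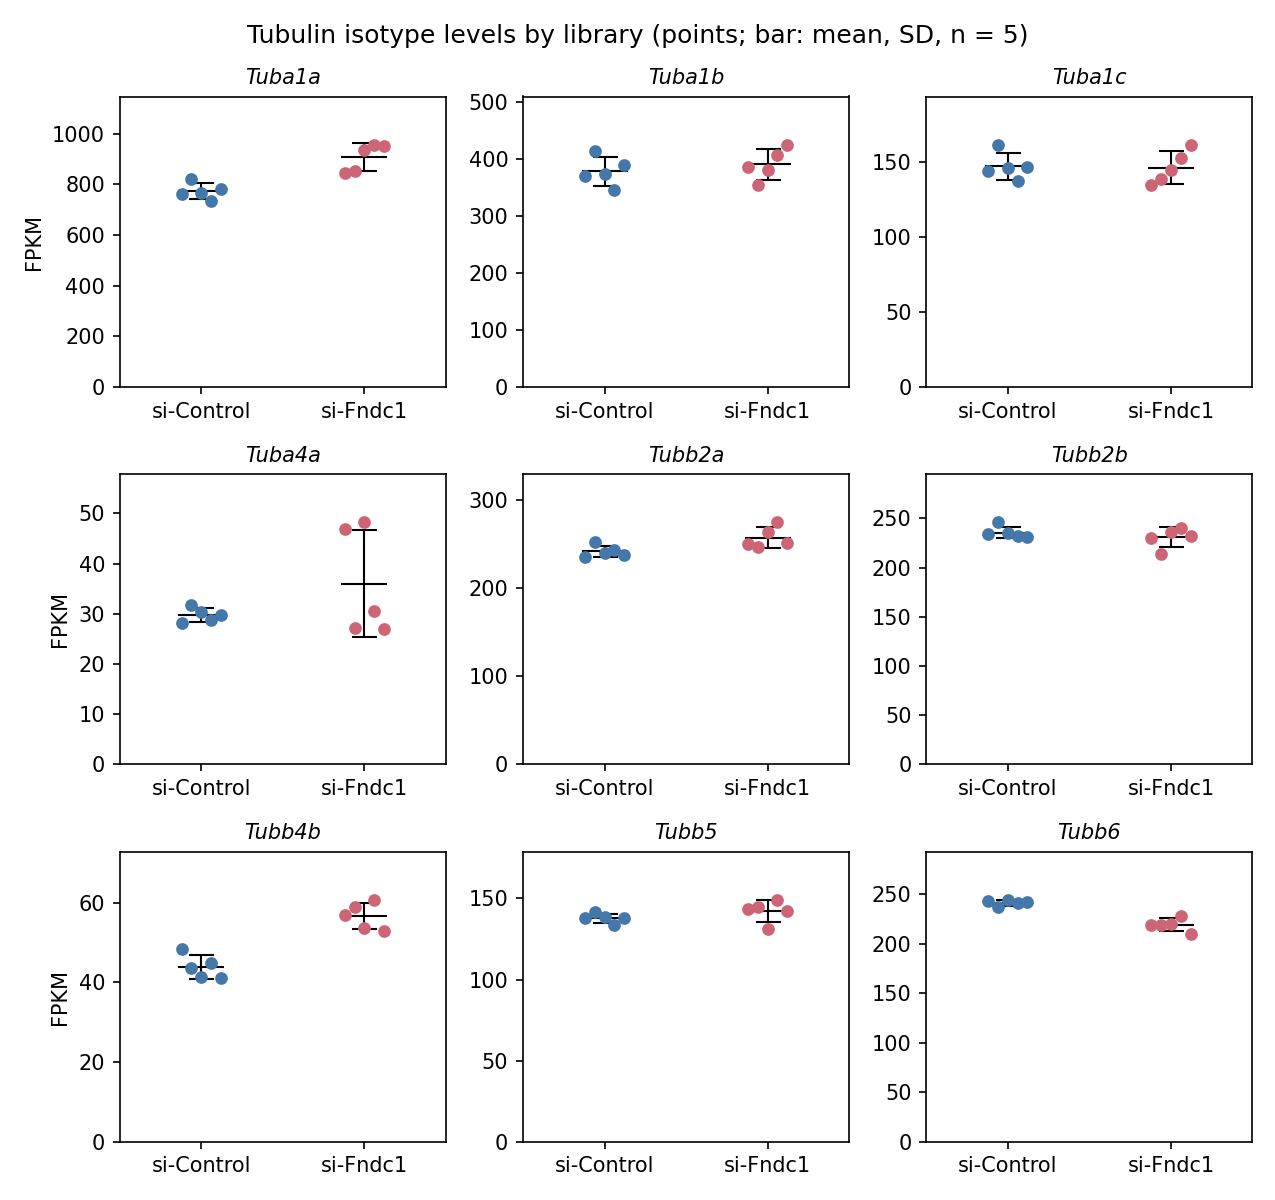
FPKM of 9 tubulin isotypes in the 5 si-Control (blue) and 5 si-Fndc1 (red) libraries, with 1 panel per gene, points for libraries, and bars for the mean and SD. The groups are separate for Tuba1a and Tubb4b (higher in si-Fndc1) and Tubb6 (lower), and Tuba4a is high in si-Fndc1 replicates 1 and 3.

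Of the 9 members that passed the filter, 2 were called higher in si-Fndc1 (Tuba1a and Tubb4b) and 1 was called lower (Tubb6). That is 33.3% of the members tested, beside 34.4% of all genes tested, so that the number of calls among tubulins was near the background. The median log2 fold change was 0.05 over the members and 0.0043 over all tested genes. The 3 called members were also the 3 whose groups did not overlap in FPKM, beside 25.1% of all genes tested without overlap. In bulk RNA fewer cells of a type and less RNA per cell cannot be told apart.

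Tuba1a, the main alpha tubulin of developing neurons and a major one in myoblasts, rose by 17.4% in mean FPKM. In si-Control replicates 1 to 5 it was at 762, 821, 766, 734 and 783 FPKM, and in si-Fndc1 replicates 1 to 5 at 844, 853, 937, 956 and 950.2 FPKM. All 5 si-Fndc1 libraries lay above all si-Control libraries, with si-Fndc1 replicates 1 and 2 the closest to them. The means were 773 ± 31.8 and 908 ± 54.6 FPKM (SD, n = 5), and the log2 fold change was 0.24 (SE 0.05, adjusted p 0.00269). It was 0.16 with the GC and length offset (adjusted p 0.00512), and Tuba1a was called in all 23 alternative settings. A read-through gene that spans Tuba1a and Tuba1b, Gm49450, held 3183 reads in si-Fndc1 replicate 2 and 1294 in replicate 4, and none in the other 8 libraries. These counts came to 2.54% and 0.940% of the Tuba1a counts there, and adding them is 1 of the 23 settings.

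Tuba1b and Tuba1c, whose products are close to Tuba1a in sequence, did not pass the test. Tuba1b lay between 346 and 414 FPKM in si-Control and between 355 and 425 FPKM in si-Fndc1 (log2 fold change 0.05, SE 0.06, adjusted p 0.515), and 1 si-Fndc1 library lay above all si-Control libraries. Tuba1c spanned 137 to 161 FPKM in si-Control libraries and 134 to 161 FPKM in si-Fndc1 libraries (log2 fold change -0.00051, SE 0.06, adjusted p 0.995). The groups overlapped for both genes. Within groups the 3 neighbours varied together over the 10 libraries, with correlations of their deviations from the group means of 0.91 for Tuba1a and Tuba1c, 0.87 for Tuba1b and Tuba1c and 0.81 for Tuba1a and Tuba1b. These points share libraries, depth and near-identical sequence.

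Tuba4a, an alpha tubulin known from muscle and platelets that lacks the encoded tyrosine, was spread widely in si-Fndc1. In si-Control replicates 1 to 5 it was at 28.2, 31.7, 30.4, 28.9 and 29.8 FPKM, and in si-Fndc1 replicates 1 to 5 at 46.8, 27.2, 48.2, 30.6 and 27.0 FPKM. Replicates 1 and 3 of si-Fndc1 stood above every other library, and the other 3 si-Fndc1 libraries lay within or below the si-Control range. The means were 29.8 ± 1.36 and 36.0 ± 10.6 FPKM (SD, n = 5), and the log2 fold change of 0.28 (SE 0.17) had an adjusted p of 0.222. Stk16 overlaps Tuba4a on the opposite strand, and the sources used here do not say if strand entered the counting. Stk16 lay between 4.43 and 5.78 FPKM in si-Control and between 3.96 and 5.01 FPKM in si-Fndc1. Tuba8, the alpha tubulin typical of adult striated muscle and testis, had 0 reads in all 10 libraries. A count of 0 allows up to 3 reads, which was 0.0395 to 0.0533 CPM (counts scaled to library size), and this limit covers counting error only.

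Tubb4b, a widely expressed beta tubulin that is prominent in cilia, had the largest log2 fold change of the 9 tested members. It was at 48.4, 43.7, 41.3, 44.8 and 41.2 FPKM in si-Control replicates 1 to 5, and at 57.0, 58.9, 53.7, 60.7 and 53.0 FPKM in si-Fndc1 replicates 1 to 5. All 5 si-Fndc1 libraries lay above the highest si-Control library, replicate 1. The means were 43.9 ± 2.96 and 56.7 ± 3.31 FPKM (SD, n = 5), a rise of 29.2% with a log2 fold change of 0.38 (SE 0.06, adjusted p 0.000473). The value with the GC and length offset was 0.37 (adjusted p 0.00125), and Tubb4b was called in all 22 alternative settings.

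Tubb6, a divergent beta tubulin known to be high in myoblasts and regenerating muscle and low in mature fibers, fell by 9.27% in mean FPKM. It was at 243, 236, 244, 241 and 242 FPKM in si-Control replicates 1 to 5, and at 219, 219, 220.1, 227 and 209 FPKM in si-Fndc1 replicates 1 to 5. Each si-Fndc1 library lay below each si-Control library. The means were 241 ± 2.92 and 219 ± 6.43 FPKM (SD, n = 5), and the log2 fold change was -0.13 (SE 0.03, adjusted p 0.00597). This call was lost with the GC and length offset, where the log2 fold change was -0.06 (adjusted p 0.131).

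Tubb2a, Tubb2b and Tubb5, which with Tubb6 make up most of the beta tubulin mRNA, did not pass the test. Tubb2a was at 235, 252, 239.7, 242 and 237 FPKM in si-Control replicates 1 to 5 and at 249.3, 246, 264, 274 and 250.3 FPKM in si-Fndc1 replicates 1 to 5. Si-Control replicate 2 lay within the si-Fndc1 range, and the other si-Control libraries lay below it. The log2 fold change of Tubb2a was 0.10 (SE 0.04, adjusted p 0.0731), and without si-Control replicate 2 it was 0.11 (adjusted p 0.0479). Tubb2b lay between 231 and 246 FPKM in si-Control and between 214 and 241 FPKM in si-Fndc1 (log2 fold change -0.02, SE 0.04, adjusted p 0.663). Tubb5, a broadly expressed beta tubulin of dividing cells, lay between 134 and 141 FPKM in si-Control and between 131 and 149 FPKM in si-Fndc1 (log2 fold change 0.05, SE 0.04, adjusted p 0.30). The groups overlapped for both. For Tubb5, si-Fndc1 replicate 3 (131) lay below the si-Control range and the other si-Fndc1 libraries lay above it. Without si-Fndc1 replicate 3 the edgeR log2 fold change of Tubb5 was 0.08 (adjusted p 0.0821). The within-group correlation of Tubb2a and Tubb2b over the 10 libraries was 0.83, again between genes that share libraries, depth and sequence.

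**Figure D2:**
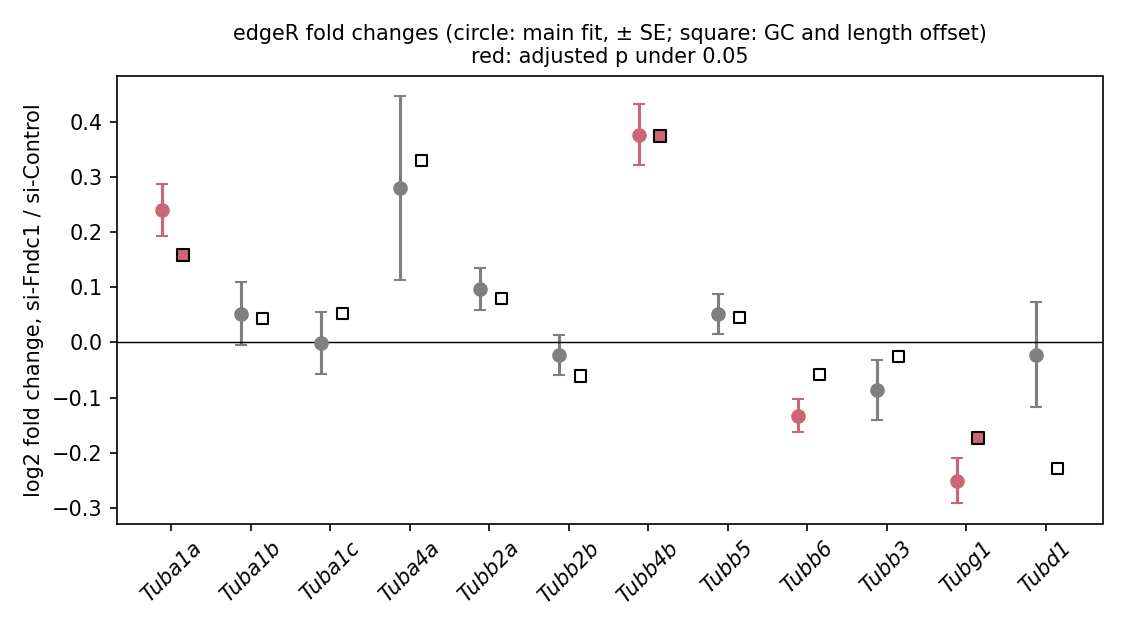
Log2 fold changes of si-Fndc1 over si-Control in edgeR for 9 tubulin isotypes and 3 other tubulin genes, as circles with SE (TMM scaling) and squares (GC and length offset), red where the adjusted p was under 0.05. Tuba1a and Tubb4b are above 0 and called in both fits, Tubb6 is called only without the offset, and Tubg1 is below 0 and called in both.

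Isotype shares were computed in every library as the FPKM of a gene over the sum of the 5 alpha or the 5 beta members. They are given as descriptions without a test. Tubb3, which is no member, is not in the beta sum. It lay between 34.5 and 37.9 FPKM in si-Control and between 30.6 and 37.8 FPKM in si-Fndc1. Tuba1a made up 58.2% ± 0.531 of alpha tubulin FPKM in si-Control and 61.3% ± 0.978 in si-Fndc1 (SD, n = 5), with library values of 57.5% to 58.9% and 59.8% to 62.1%. The share of Tuba1b went from 28.5% to 26.4% and that of Tuba1c from 11.1% to 9.87%, and in all 3 the groups did not overlap. For Tuba4a the share was 2.24% in si-Control and 2.44% in si-Fndc1, with the 2 high libraries at 3.32% and 3.19% and the rest at 1.73% to 1.98%. The difference in the mean share of Tuba4a was 0.195 percentage points, -0.025 without si-Fndc1 replicate 1, 0.0077 without si-Fndc1 replicate 3, and 0.372 without si-Fndc1 replicate 5. As a share of read counts, which are not divided by length, Tuba4a was at 4.33% and 4.70% of alpha tubulin. The mean share of Tuba1a was 3.10 percentage points higher in si-Fndc1, while Tuba1b and Tuba1c had lower shares at FPKM levels that did not pass the test. Shares of the same sum are tied to each other, for alpha and for beta, so that these differences in share are not separate results.

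Among beta tubulins no single isotype prevailed. In si-Control Tubb2a, Tubb6 and Tubb2b made up similar parts of the FPKM (26.8%, 26.8% and 26.2%), followed by Tubb5 at 15.3% and Tubb4b at 4.88%. In si-Fndc1 Tubb2a was at 28.4%, Tubb4b at 6.26% and Tubb6 at 24.2%, and for these 3 the groups did not overlap. Tubb2b (25.5%) and Tubb5 (15.7%) overlapped with si-Control. Read counts, which are not divided by length, gave another order of the beta isotypes. As a share of counts in si-Control, Tubb6 was at 28.4%, Tubb2b at 26.1%, Tubb5 at 22.2%, Tubb2a at 18.8% and Tubb4b at 4.43%. The sum of the 5 isotypes was 899.8 ± 11.8 FPKM in si-Control and 905 ± 27.7 FPKM in si-Fndc1, with overlapping libraries.

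Summed alpha tubulin FPKM was 1329 ± 66.8 in si-Control and 1481 ± 84.0 in si-Fndc1, and si-Control replicate 2 (1428) lay inside the si-Fndc1 range of 1374 to 1563. The ratio of alpha to beta FPKM was taken over the members, and so without Tubb3. It was 1.45, 1.55, 1.46, 1.39 and 1.52 in si-Control replicates 1 to 5 and 1.57, 1.56, 1.67, 1.62 and 1.76 in si-Fndc1 replicates 1 to 5. The groups did not overlap, but the lowest si-Fndc1 value was next to the highest si-Control value, and the mean ratio was 1.11 times higher in si-Fndc1. FPKM rests on the authors' transcript lengths, which the counts and FPKM place at 4116 bases for Tuba4a, where its longest coding transcript in NCBIM37 has 2053. With those transcript lengths the ratio between the groups was 1.12, and with read counts 1.11.

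**Figure D3:**
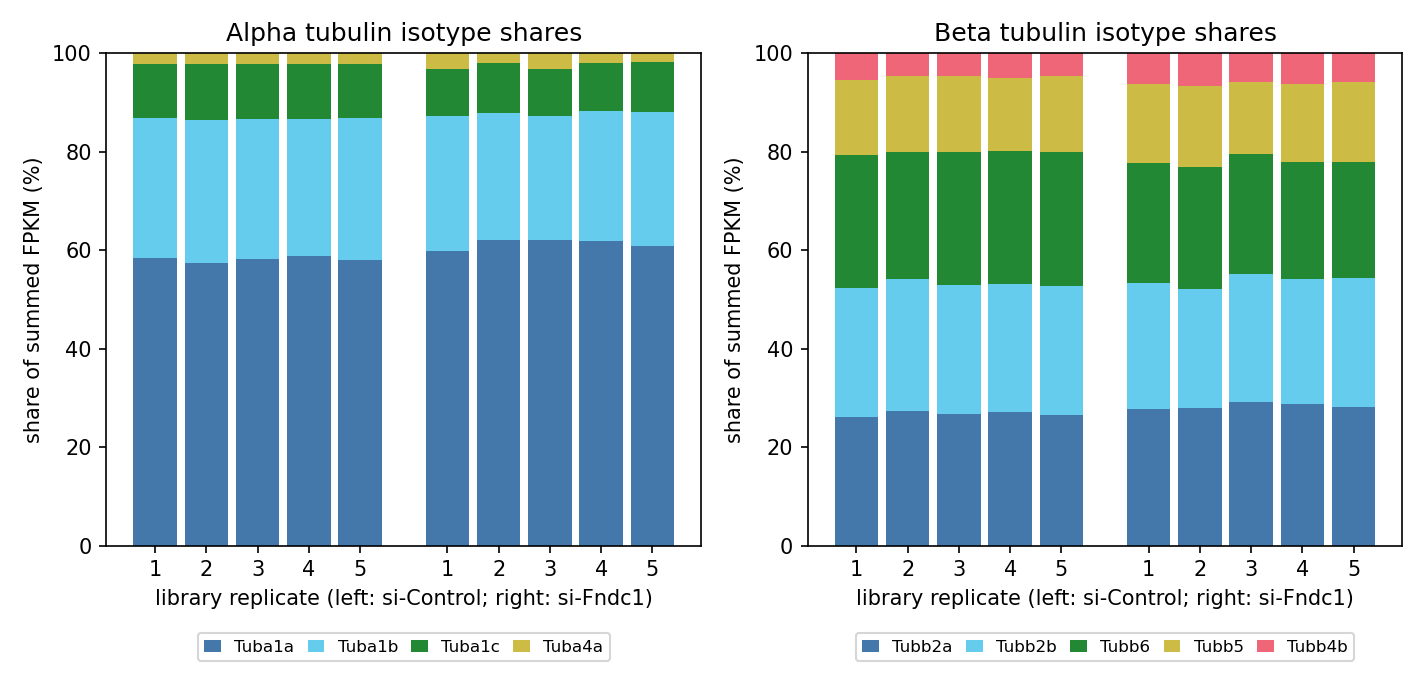
Share of each isotype in the summed FPKM of the alpha members (left panel) and of the beta members (right panel) in each library. Bars are stacked, in percent. Tuba1a takes 57.5% to 58.9% of alpha tubulin in si-Control libraries and 59.8% to 62.1% in si-Fndc1 libraries, and Tubb4b takes 4.59% to 5.38% and 5.94% to 6.67%.

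Promoter sequence is shown for the members called higher, Tuba1a and Tubb4b, as the 250 bases before the annotated start in RefSeq on GRCm38.p6, both on the minus strand and written 5′ to 3′ in the direction of the gene. Capitals mark matches, on either strand, to the TATA box written as TATAAA, the CCAAT box by its name, the E-box written as CANNTG, and the GC box written as GGGCGG.
Tuba1a, chr15:98953502-98953751: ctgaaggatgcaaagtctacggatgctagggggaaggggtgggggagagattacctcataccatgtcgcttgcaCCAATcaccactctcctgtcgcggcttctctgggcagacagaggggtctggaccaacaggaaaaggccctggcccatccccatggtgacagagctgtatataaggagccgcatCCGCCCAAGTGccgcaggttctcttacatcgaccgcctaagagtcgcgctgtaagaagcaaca
Tubb4b, chr2:25224703-25224952: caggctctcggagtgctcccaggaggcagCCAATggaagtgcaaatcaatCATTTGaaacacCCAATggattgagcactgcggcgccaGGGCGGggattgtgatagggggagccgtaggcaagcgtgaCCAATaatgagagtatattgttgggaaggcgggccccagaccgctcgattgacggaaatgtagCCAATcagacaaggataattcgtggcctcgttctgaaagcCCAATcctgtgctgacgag
In this window Tuba1a had 1 CCAAT, 1 E-box and 1 GC box, the last 2 sharing a base, and Tubb4b had 5 CCAAT, 1 E-box and 1 GC box. Of 32851 RefSeq promoters of this length, 33.8% held CCAAT, 66.2% an E-box, 32.7% the GC box and 12.4% TATAAA, and 70 (0.213%) held CCAAT at least 5 times, a number chosen after that of Tubb4b was seen. Of the 8 members with a promoter entry, CCAAT was also found in Tuba1c (1) and Tubb5 (2), which did not pass the test, and TATAAA was found in Tubb2a. For the TATA box only the letters TATAAA were searched, so that a variant such as tatataag, present in the Tuba1a sequence, was not marked or counted. A match of letters is a description and not a binding site.

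The genes most like the leading isotypes were taken as the 3 with the highest Pearson r of log2(CPM + 1) over the 10 libraries, which includes the difference between the groups. For Tuba1a these were Lamtor4 (r = 0.998), a subunit of the lysosomal Ragulator complex, Gabarap (0.991), an autophagy protein, and Rpl27 (0.987), a ribosomal protein. All 3 were called higher, with log2 fold changes of 0.30, 0.33 and 0.28. Tubb2a was the beta isotype with the highest mean FPKM over all 10 libraries (level with Tubb6 in si-Control), though not in read counts. For Tubb2a the genes were Actl6a (0.949), a chromatin remodelling subunit, Gemin6 (0.937), of the SMN complex, and Acsl3 (0.936), a fatty acid activating enzyme. Their log2 fold changes were 0.18, 0.32 and 0.08. Actl6a and Gemin6 were called and Acsl3 was not (adjusted p 0.120). All points come from the same 10 libraries.

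Of 10 other tubulin genes, 3 passed the filter. Tubg1, the gamma tubulin that nucleates microtubules, fell from 17.6 ± 0.678 to 14.7 ± 0.438 FPKM (SD, n = 5; log2 fold change -0.25, SE 0.04, adjusted p 0.000937), and all 5 si-Fndc1 libraries (14.3 to 15.4) lay below all si-Control libraries (16.6 to 18.4). Tubb3, the beta tubulin best known from neurons, was at 36.1 and 33.8 FPKM (log2 fold change -0.09, adjusted p 0.247), and Tubd1, the delta tubulin of centrioles, at 4.57 and 4.48 FPKM (log2 fold change -0.02, adjusted p 0.881). For both the groups overlapped.

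Genes of tubulin folding were called in both directions, and all calls among CCT subunits were rises. Of the 8 CCT genes, which encode the ring that folds actin and tubulin, 5 rose and 0 fell (62.5% called beside 34.4% of all genes, with 17.3% higher), with a median log2 fold change of 0.15. Tcp1 was at 41.7 ± 0.438 and 48.4 ± 0.729 FPKM (log2 fold change 0.22, adjusted p 9.2e-05) and Cct6a at 59.5 ± 2.86 and 71.0 ± 2.76 (0.26, adjusted p 0.000522). Cct4 (0.37), Cct5 (0.12) and Cct8 (0.19) were the others, named here after their values were seen. With the GC and length offset 5 CCT genes were again called higher and 0 lower. Of all 11185 genes tested with it, 1381 were called higher and 1223 lower.

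Of 13 prefoldin and cofactor genes, 6 rose and 3 fell (69.2% called, beside 34.4% of all genes), with a median of 0.21. Tbca, which holds beta tubulin after folding, rose from 74.6 to 105 FPKM (log2 fold change 0.50, SE 0.06), and Pfdn5, a prefoldin subunit, from 39.7 to 54.8 FPKM (0.47, SE 0.05). Tbcc (-0.35), Tbcd (-0.12) and Arl2 (-0.23), which act at the step where the dimer is assembled and released, fell, and are named after their values were seen. With the offset 2 of the 13 rose and 1 fell, beside 1381 that rose and 1223 that fell of 11185 genes. There Tbca was at 0.05 (adjusted p 0.359) and Pfdn5 at 0.35 (adjusted p 0.000259). Of the 3 autoregulation genes, Ttc5 fell from 6.11 to 4.84 FPKM (log2 fold change -0.33, SE 0.07, adjusted p 0.00345), and Scaper and Cnot11 were at 0.09 each and not called.

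Enzymes that modify tubulin, at the tail or by acetylation, had few calls, all of them falls. Of 16 tested of 23, 0 rose and 3 fell (18.8% called, beside 34.4% of all genes), with a median of -0.12. The 3 were Ttll1, a glutamylase subunit (-0.21, SE 0.04), Ttll11, which elongates glutamate chains (-0.33, SE 0.09), and Vash1, which removes the tyrosine of alpha tubulin (-0.61), the last named after its value was seen. Ttl, which restores that tyrosine, was at -0.0044 and not called. With the offset 2 of the 16 were called higher and 2 lower, beside 1381 higher and 1223 lower of 11185 genes.

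Structural microtubule-associated proteins fell where they were called. Of 10 tested of 13, 0 rose and 5 fell (50% called, beside 34.4% of all genes, 17.2% lower), with a median of -0.31. Map1s went from 9.79 ± 0.250 to 6.52 ± 0.478 FPKM (log2 fold change -0.58, SE 0.05) and Map1a from 17.8 ± 1.09 to 13.4 ± 1.03 (-0.41, SE 0.06), with no overlap for either. Map1b (-0.35), Map4 (-0.28), the main such protein outside neurons, and Map7d1 (-0.35) also fell, and are named after their values were seen. The offset gave -0.19 for Map1s (adjusted p 0.00644) and -0.14 for Map1a (adjusted p 0.0117), 3 genes lower and 1 higher, and a median of -0.09. These counts stand beside 1223 lower and 1381 higher of the 11185 genes tested with the offset.

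Genes of microtubule ends, nucleation and transport were called in both directions, and the called shares of the next 4 lists stand beside 34.4% of all genes. Among 17 plus-end and catastrophe factors 2 rose and 2 fell (23.5%), with the severing subunit Katna1 at 0.30 and Stmn2, a tubulin-binding protein that is also among the neuron markers, at 0.31, and the plus-end tracking Clip2, among those that fell, at -0.30. Stmn2 is named after its value was seen. Among 15 genes of the gamma-tubulin ring and the organizing centres 1 rose, the small ring subunit Mzt1 (0.40, SE 0.05), and 7 fell, Tubg1 and the anchoring protein Akap9 (-0.26, SE 0.04) among them (53.3%). Among 13 kinesin-1 and dynein genes 3 rose and 4 fell (53.8%), Dctn1 of dynactin (-0.27, SE 0.04) and Dync1li2, a dynein light intermediate chain (-0.21, SE 0.03), among the latter. With the offset the calls were 1 higher and 4 lower among plus-end and catastrophe factors, 1 higher and 4 lower in the ring and organizing centre list and 2 higher and 1 lower among motors, and Dctn1 was at 0.0047 (adjusted p 0.918). Among 8 proliferation markers 2 rose, Ccna2 (0.44, SE 0.07) and Cdk1 (0.41), the second named after its value was seen, and 0 fell (25%). With the offset 2 were called higher and 1 lower. The offset calls of these 4 lists stand beside 1381 higher and 1223 lower of the 11185 genes tested with it.

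**Figure D4:**
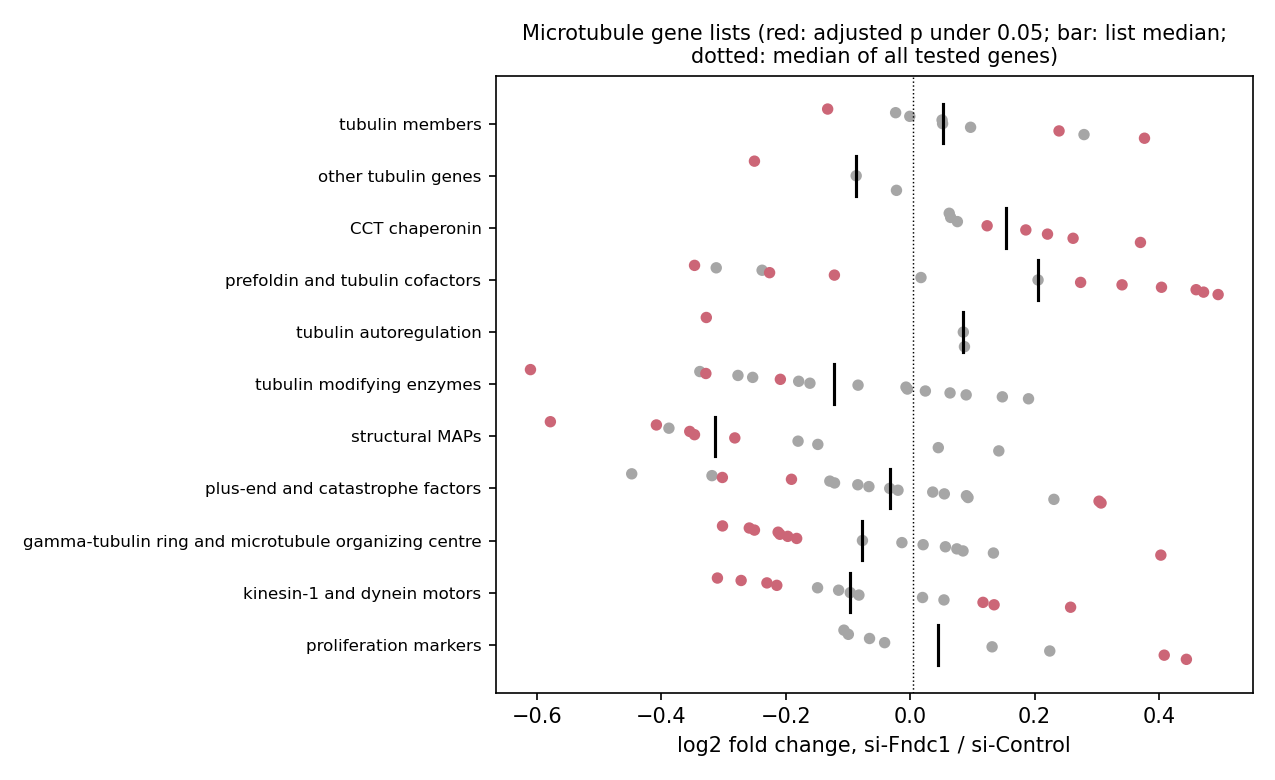
Log2 fold changes of si-Fndc1 over si-Control in edgeR for tested genes of the tubulin and microtubule lists, with 1 row per list, red points at an adjusted p under 0.05, black bars at list medians and a dotted line at the median of all tested genes (0.0043). The CCT points all lie above 0, with 5 of 8 called, and the called structural microtubule-associated proteins all lie below 0.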

How the data were processed

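The authors deposited a table of raw read counts per gene and of FPKM values, listed as 0.0001 where no read was counted and taken as 0 here. The paper's methods name TopHat, mm10, htseq-count and 4 libraries, the series description STAR, mm9 and reads of 75 bases, and the submitters' processing notes GRCm39, cutadapt 1.9 and FastQC. Groups and replicate numbers came from the labels, and all 10 libraries were used. Counts were tested, for genes averaging 0.5 FPKM or more, with edgeR 4.0.16 (TMM, quasi-likelihood test, Benjamini-Hochberg adjustment over 13548 genes) in R 4.3.3, without a replicate term. Alternatives were DESeq2 1.42.0, limma 3.58.1 on log2(FPKM + 1) and log2(FPKM + 0.1), other scalings and filters, leaving out each library, the replicate number as a block, and an offset for GC content and length fitted with splines of 5 degrees of freedom on 11185 genes. The 20 pairs of libraries of 1 group differed by chi-square values of 45.0 to 85.3 times their degrees of freedom. Named genes were all members, other tubulins that passed this filter, and in each list the 2 called genes with the smallest p and no overlap between groups in FPKM. A few items are not reported here. The members and lists were chosen with earlier results of these data known.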

Additional observations from a re-analysis of the deposited data

Results flagged for a closer look

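A library lay far from the other 4 of its group in 4 of 48 groups of 5 libraries checked, and chance flags about 1 in 20 groups. The checks are not independent, since shares are made from the same FPKM values, and so these numbers cannot be set against each other as a test. Tubb2b was highest in si-Control replicate 2, at 245.9 FPKM with the other 4 at 231 to 235, and its share of beta tubulin there was 26.7%. The share of Tubb6 was lowest in the same library, at 25.7%. The pseudogene Tubb4b-ps1 was at 3.01 FPKM in si-Fndc1 replicate 3 and at 0.51 to 0.73 FPKM in the other 4 si-Fndc1 libraries. Tubb4b itself was at 53.7 FPKM in that library, within the range of its group.

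The read-through gene Gm49450, which is no member and was tested but not called by edgeR (adjusted p 0.0540), had 3183 reads in si-Fndc1 replicate 2 and 1294 in si-Fndc1 replicate 4 and no read in any si-Control library. These came to 5.89% and 2.12% of the Tuba1b counts of the same libraries.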

How the results depend on the processing

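Tuba1a and Tubb4b kept their direction and call in every setting run, over log2 fold changes of 0.16 to 0.27 and 0.35 to 0.42 and adjusted p of 4.76e-05 to 0.0314 and 2.66e-08 to 0.0042. Tubb6 was not called with the GC and length offset (-0.057) or with that offset and the replicate block (-0.058, adjusted p 0.231). Tubb2a was called with upper-quartile scaling (0.11, adjusted p 0.0495). Its value without single libraries was 0.073 to 0.11. Tuba1c turned positive with upper-quartile scaling (0.017), the offset (0.053), the offset and block (0.052) and on the genes with GC content and length without offset (0.0056, a setting added after seeing the data), and was -0.033 to 0.034 without single libraries. Tubb2b was -0.038 to 0.0020 without single libraries. Tuba1b, Tuba4a and Tubb5 kept their direction without a call, and Tuba4a was 0.15 to 0.37 without single libraries.

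The number of genes called was 2604 with the offset, 1750 with offset and block, 4244 on the same 11185 genes without offset and 4000 to 4627 without single libraries. With the offset 3 prefoldin and cofactor, 5 ring and organizing centre and 3 motor genes were called. With offset and block these were 2, 2 and 3, and 3 structural proteins. At a mean FPKM of at least 5 the organizing centre list had 3 calls and the proliferation list 0, with fewer genes tested, and without a filter 2 other tubulins were called, Tubg1 and Tubg2. The replicate block alone called 3572 genes, 3 CCT genes and the same 3 members. Libraries of the same number did not vary together over the tested genes (r of -0.06 to 0.06). This cannot exclude shared handling with effects that are small or limited to few genes. Other causes were not tested. Depth limits statements on Tuba8, where up to 3 reads may be missed.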

Other observations

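The high level of Tuba4a in si-Fndc1 replicates 1 and 3 was shared by few genes. Of 13548 tested genes, 6 had both of these libraries more than 0.4 (log2 CPM) above every other library, and they were looked for after the values of Tuba4a had been seen. Besides Tuba4a they were Nphs1, Selenoi, the ribosomal protein pseudogenes Rps12-ps4 and Rpl17-ps5, and 1 gene without a symbol. Nphs1, which encodes the slit diaphragm protein nephrin of the kidney, was at 96.1 and 61.9 CPM in the 2 libraries, at 2.43 to 6.03 in si-Control, and at 3.46, 12.4 and 5.21 in si-Fndc1 replicates 2, 4 and 5. Selenoi, an enzyme of phosphatidylethanolamine synthesis, was at 40.4 and 53.0 CPM, and at 17.4 to 21.4 in the other 8 libraries. Over the 10 libraries the Pearson r with Tuba4a was 0.919 for Nphs1, 0.951 for Selenoi, 0.964 for Rps12-ps4 and 0.689 for Rpl17-ps5, and these values rest on the same 2 libraries.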
